A study of Mus musculus with 6 samples.

Results

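The aryl hydrocarbon receptor (AhR) axis was followed through 8 mouse genes picked by symbol: the receptor Ahr, its partners Arnt and Ptges3, its feedback genes Ahrr and Tiparp, and its target genes Cyp1b1, Ugt1a6a and Ugt1a6b. Of these 8, 7 were among the 16426 genes in the deposited FPKM values, and Ahrr was not analysed here. The cells were 4T1-LM3, labelled a murine mammary carcinoma line. Of the 6 samples, 3 had been given conditioned medium (CM, medium that carries what other cells released) from matrix fibroblasts (MFs) called Tdo2high, here Tdo2high CM. The other 3 had been given Control CM, whose source the labels do not state, so every sample had received a CM. Polyadenylated RNA was sequenced, and each gene's level is given as FPKM, a count of fragments corrected for the length of the transcript and the size of the library. Separate cultures are not stated in the labels, so p-values here reflect only how far these samples spread, and that spread may be technical.

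AhR is a ligand-activated transcription factor of the bHLH-PAS family that waits in the cytoplasm in a complex with HSP90 and co-chaperones. On binding a ligand, such as a dioxin, a plant indole or kynurenine, it moves to the nucleus, pairs with ARNT and binds a short DNA motif near target genes, many of which encode enzymes that oxidise or conjugate foreign compounds. AHRR and TIPARP are made in response and dampen the receptor. Tdo2 encodes tryptophan 2,3-dioxygenase, which starts the conversion of tryptophan to kynurenine, and the design asks how medium from fibroblasts rich in it alters the carcinoma cells.

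FPKM values, which are already scaled to library size, summed to 444216.5 to 445209.2 after Tdo2high CM and 438603.4 to 447415.0 after Control CM. Read depth is unknown, since the rounded FPKM values gave back no whole reads. Of 7 epithelial markers in the table, 5 were below 1 FPKM in every library, among them Epcam and Cdh1 (at most 0.11 FPKM each), whereas Krt8 and Krt18 were abundant (at least 263.92 FPKM each). Summed fibroblast markers (7 in the table, 3 of them below 1 FPKM throughout, none at 0 in all libraries) ran from 122 to 126 FPKM after Tdo2high CM and from 110 to 114 FPKM after Control CM. The markers did not move one way. Npnt was at 41.43 to 44.6 FPKM after Tdo2high CM and 29.99 to 31.91 FPKM after Control CM (log2 fold change 0.46, adjusted p = 9.97e-05 by limma), and Pdgfra at 47.2 to 47.55 FPKM after Tdo2high CM and 41.71 to 42.14 FPKM after Control CM (0.17, adjusted p = 0.00518). Dcn was lower, at 9.99 to 11.85 FPKM after Tdo2high CM and 15.03 to 16.06 FPKM after Control CM (-0.48, adjusted p = 0.00114 by limma). Pdgfrb did not pass the test (-0.03, adjusted p = 0.644 by limma), Col1a1 did not exceed 0.12 FPKM, and Col1a2 and Lum did not exceed 0.03 FPKM. The part of these markers in the results below was not tested. In bulk RNA, more cells that express a gene and more RNA per cell cannot be told apart.

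Among the members, the feedback gene Tiparp and the target gene Cyp1b1 rose by 20.1% and 12.0% after Tdo2high CM. The summed rows of the target pair Ugt1a6a and Ugt1a6b, whose later exons other genes of their locus share, were 3.88 times as high. The receptor and its 2 measured partners did not pass the test. Genes were tested when they reached 1 FPKM in at least 3 of the 6 libraries, which 6 of the 8 members did. By limma on log2(FPKM + 1) with Benjamini-Hochberg adjustment over 10804 genes, 3 of the 6 tested members (Tiparp, Cyp1b1 and Ugt1a6a) were higher and 0 lower at an adjusted p under 0.05. At an unadjusted p under that limit no member was lower either. Of all tested genes, 3.35% were called higher and 4.06% lower, 7.41% in either direction. Ugt1a6a reached 1 FPKM in the Tdo2high CM libraries and in no Control CM library, so it could enter the test only by differing. Of the 7 measured members, 5 had groups that did not overlap (Ahr, Tiparp, Cyp1b1, Ugt1a6a and Ugt1a6b), and all 5 were higher after Tdo2high CM. Ugt1a6a and Ugt1a6b share most of their coding exons, so they are not separate counts, and Ugt1a6b was below the filter. Groups did not overlap for 29.2% of all tested genes, 11.6% with the higher level after Tdo2high CM.

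**Figure D1:**
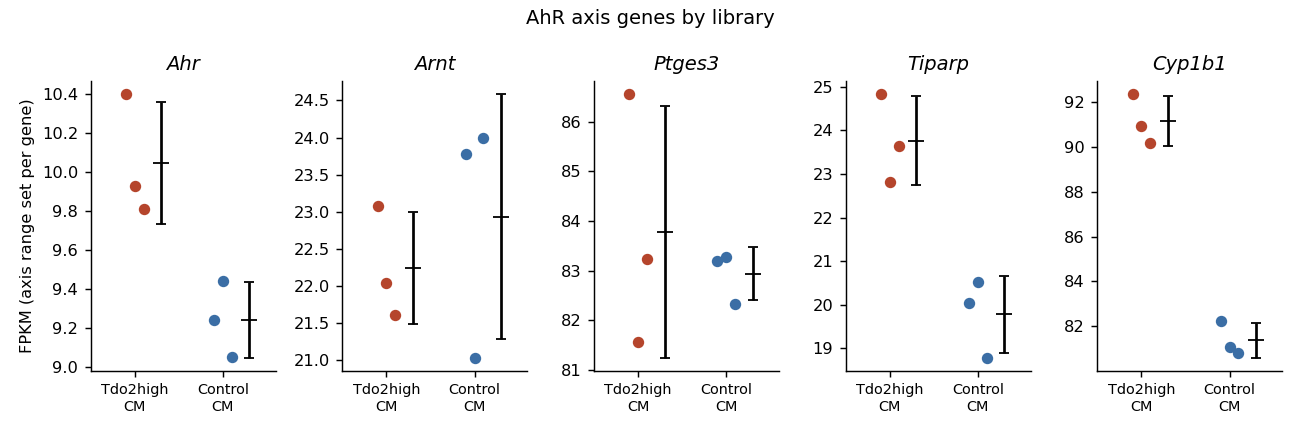
FPKM of Ahr, Arnt, Ptges3, Tiparp and Cyp1b1 in each library, with the mean and SD of each group (n = 3) beside the points; axis ranges differ between genes and do not start at 0. The groups are apart for Ahr, Tiparp and Cyp1b1 and overlap for Arnt and Ptges3.

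Ahr (gene 11622, GRCm38 chromosome 12, 35497979 to 35534989) encodes the receptor. Its level was 10.4, 9.93 and 9.81 FPKM after Tdo2high CM and 9.24, 9.44 and 9.05 FPKM after Control CM. All 3 Tdo2high CM libraries lay above all 3 Control CM libraries, by a small margin. The log2 fold change was 0.11 ± 0.043 (SE; 95% interval 0.01 to 0.21), and the difference did not pass the adjustment over all genes (adjusted p = 0.163 by limma). Under 16 alternative settings the adjusted p ran from 0.096 to 0.349.

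Arnt (gene 11863, chromosome 3, 95434367 to 95497240) encodes the partner with which the receptor binds DNA, and it also serves hypoxia-inducible factors. Levels were 23.08, 22.04 and 21.61 FPKM after Tdo2high CM and 23.78, 21.03 and 23.99 FPKM after Control CM. The groups overlapped, with Control CM replicate 2 the lowest of the 6 and the other Control CM libraries the highest. The interval of the log2 fold change, -0.15 to 0.07, leaves room for a small shift either way.

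Ptges3 (gene 56351, chromosome 10, 128058982 to 128077254) encodes p23, an HSP90 co-chaperone of the unliganded receptor complex. It stood at 86.56, 81.56 and 83.24 FPKM after Tdo2high CM and 83.2, 83.28 and 82.32 FPKM after Control CM. The groups overlapped, and both the highest and the lowest library belonged to Tdo2high CM. Its log2 fold change was 0.01 (adjusted p = 0.814 by limma; 95% interval -0.05 to 0.08), with a sign that turned under quantile normalization (-0.01) and without Tdo2high CM replicate 1 (-0.01). In the GENCODE M21 transcripts, 22.2% of the 50-base windows of the longest coding Ptges3 transcript also occur in other genes, a pseudogene among them, so part of its level can come from shared reads.

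Tiparp (gene 99929, chromosome 3, 65528447 to 65555518) encodes a mono-ADP-ribosyltransferase that is induced by AhR and marks the receptor for breakdown. Expression was 24.83, 22.81 and 23.65 FPKM after Tdo2high CM and 20.03, 20.52 and 18.79 FPKM after Control CM. The lowest Tdo2high CM library stood more than 2 FPKM above the highest Control CM library. Group means were 23.8 ± 1.01 FPKM after Tdo2high CM and 19.8 ± 0.892 FPKM after Control CM (SD, n = 3 each). On the log2 scale the rise was 0.25 ± 0.044 (SE; 95% interval 0.16 to 0.35, adjusted p = 0.00885 by limma), larger in size than that of 96.7% of tested genes. The call held in all 16 alternatives, at adjusted p of 0.00635 to 0.0419 by limma.

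Cyp1b1 (gene 13078, chromosome 17, 79706940 to 79715061) encodes a cytochrome P450 that oxidises polycyclic hydrocarbons and oestradiol. Its level was 92.35, 90.92 and 90.18 FPKM after Tdo2high CM and 82.25, 81.09 and 80.78 FPKM after Control CM. Replicates lay close together, with an SD of the log2 values lower than that of all but 1.75% of tested genes, and the groups were far apart on that scale. Means were 91.1 ± 1.10 FPKM after Tdo2high CM and 81.4 ± 0.775 FPKM after Control CM (SD, n = 3 each). The log2 fold change of 0.16 ± 0.026 (SE; 95% interval 0.10 to 0.22) passed at adjusted p = 0.00593 by limma, and in all 16 alternatives (0.00402 to 0.0357). In level, Cyp1b1 stood above 92.5% of tested genes over the 6 libraries. Its fold was modest: 1206 tested genes had a larger absolute log2 fold change.

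The promoters of these 2 genes are shown because they are the members outside the Ugt1a locus that rose together. Each run covers 250 bases before to 50 bases after the gene's start, 5′ to 3′ on the gene's strand, from RefSeq on GRCm38.p6. Capitals mark GCGTG on either strand, the core of the motif that AhR and ARNT bind, which reads CACGC when it lies on the other strand. The Tiparp run lies at chr3:65528197-65528496 on the plus strand and the Cyp1b1 run at chr17:79715012-79715311 on the minus strand.
Tiparp: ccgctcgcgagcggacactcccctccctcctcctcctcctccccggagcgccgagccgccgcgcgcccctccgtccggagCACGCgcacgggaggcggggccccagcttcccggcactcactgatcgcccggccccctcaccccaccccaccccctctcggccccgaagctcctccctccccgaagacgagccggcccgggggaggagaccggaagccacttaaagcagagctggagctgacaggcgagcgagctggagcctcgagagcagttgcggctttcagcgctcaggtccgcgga
Cyp1b1: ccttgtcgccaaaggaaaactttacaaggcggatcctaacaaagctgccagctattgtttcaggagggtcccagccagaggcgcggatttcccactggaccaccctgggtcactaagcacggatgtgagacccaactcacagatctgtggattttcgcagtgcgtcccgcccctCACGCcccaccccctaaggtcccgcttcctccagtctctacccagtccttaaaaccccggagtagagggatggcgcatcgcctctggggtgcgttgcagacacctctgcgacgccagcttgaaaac
Each held 1 core, in both cases on the strand opposite to the gene. Promoter sequences were at hand for 6 of the 8 members, and 5 of those held at least 1 core: Tiparp, Cyp1b1, Arnt (1), Ptges3 (2) and Ahrr (3). Ugt1a6a had none in its window. The core occurred in 32.4% of 32851 promoter windows of the same length. The 5 member windows with a core were 58.3% to 73.7% G or C, and that of Ugt1a6a 51.7%. The median over all windows was 52.7%, and the part of base composition in these counts was not tested. The longer form TNGCGTG, which contains the core, occurred in 5.07% of them and, among the 6 members, in Ahrr alone. A match of letters is a description, and no binding was measured.

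Ugt1a6a (gene 94284, chromosome 1, 88134809 to 88220002) and Ugt1a6b (gene 394435, chromosome 1, 88103257 to 88218998) encode UDP-glucuronosyltransferases that conjugate small phenols. They belong to a locus whose genes each have a first exon of their own and share the rest. In the GENCODE M21 models, 4 of the 5 coding exons of Ugt1a6b have the same coordinates as those of Ugt1a6a. The coding parts of the first exons, 858 bases in each, differ at 26 positions (97.0% identical). The stretch richest in differences is shown because it is what can tell the rows apart: bases 271 to 360 of the coding sequence, chr1:88138744-88138833 for Ugt1a6a and chr1:88107212-88107301 for Ugt1a6b, both on the plus strand. Capitals mark letters that differ between the genes, 13 in 90.
Ugt1a6a: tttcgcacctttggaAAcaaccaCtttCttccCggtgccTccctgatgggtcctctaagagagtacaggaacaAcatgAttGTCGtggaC
Ugt1a6b: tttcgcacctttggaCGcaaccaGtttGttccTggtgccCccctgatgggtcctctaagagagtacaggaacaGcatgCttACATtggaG
Over whole transcripts, 80.6% of the 50-base windows of the longest coding Ugt1a6a transcript recur in Ugt1a6b. None of its windows is its own alone, since 1 model of Ugt1a7c holds its first coding exon too. Of the windows of the longest coding Ugt1a6b transcript, 19.3% occur in no other gene. The sources used here do not give how the authors' counting divides such fragments.

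The Ugt1a6a row read 1.05, 1 and 1.81 FPKM after Tdo2high CM and 0.58, 0.57 and 0.21 FPKM after Control CM. That of Ugt1a6b read 1.56, 1.32 and 0.63 FPKM after Tdo2high CM and 0.10, 0.01 and 0.43 FPKM after Control CM. In both rows every Tdo2high CM library was above every Control CM library, but the replicates of a group were uneven, and the library high in 1 row was low in the other. The share of the pair assigned to Ugt1a6a was 40.2%, 43.1% and 74.2% after Tdo2high CM and 85.3%, 98.3% and 32.8% after Control CM. These shares overlapped between the groups.

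Summed over both rows, the level was 2.61, 2.32 and 2.44 FPKM after Tdo2high CM and 0.68, 0.58 and 0.64 FPKM after Control CM. The sum was steady within each group and wide apart between them. Its coefficient of variation was 5.93% after Tdo2high CM and 7.95% after Control CM, against 35.3% and 46.5% for Ugt1a6a alone. Means of the sum were 2.46 ± 0.146 FPKM after Tdo2high CM and 0.633 ± 0.0503 FPKM after Control CM (SD, n = 3 each), a 3.88-fold difference.

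**Figure D2:**
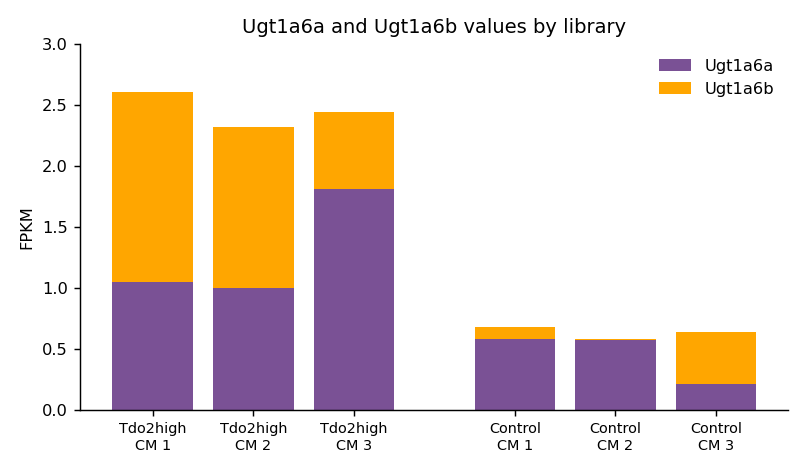
Stacked FPKM of Ugt1a6a and Ugt1a6b in each library (bars start at 0). The division between the rows changes from library to library, while the full height is 2.32 to 2.61 FPKM after Tdo2high CM and 0.58 to 0.68 FPKM after Control CM.

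As a single row, Ugt1a6a rose with a log2 fold change of 0.65 ± 0.149 (SE; adjusted p = 0.0294 by limma). That call ended in 7 of the 15 alternatives that could test it, at adjusted p up to 0.101. It ended without Tdo2high CM replicate 3 (0.0798) and without Control CM replicate 1 (0.0513), 2 (0.0507) or 3 (0.0845), and with no filter on low values (0.101). Ugt1a6b reached 1 FPKM in 2 libraries and was below the filter. With no filter its log2 fold change was 0.87 ± 0.195 (SE) and it did not pass (adjusted p = 0.0792 by limma, where 1.21% of 16397 genes were called higher). Entered as 1 row in place of the 2, the sum had a log2 fold change of 1.08 ± 0.074 (SE; 95% interval 0.92 to 1.25, adjusted p = 2.74e-05 by limma). Like Ugt1a6a, the sum reached 1 FPKM in the Tdo2high CM libraries only. With no filter it passed at adjusted p = 0.000477, the highest over its alternatives. Values on the log2(FPKM + 1) scale understate the fold of genes at such low levels. Ugt1a7c, another gene of the locus, did not exceed 0.10 FPKM, and a sum over these 3 rows had a log2 fold change of 1.09. Ugt1a1, Ugt1a2, Ugt1a5, Ugt1a8, Ugt1a9 and Ugt1a10 were not analysed here. Fragments from exons shared across the locus cannot be assigned to a particular gene.

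**Figure D3:**
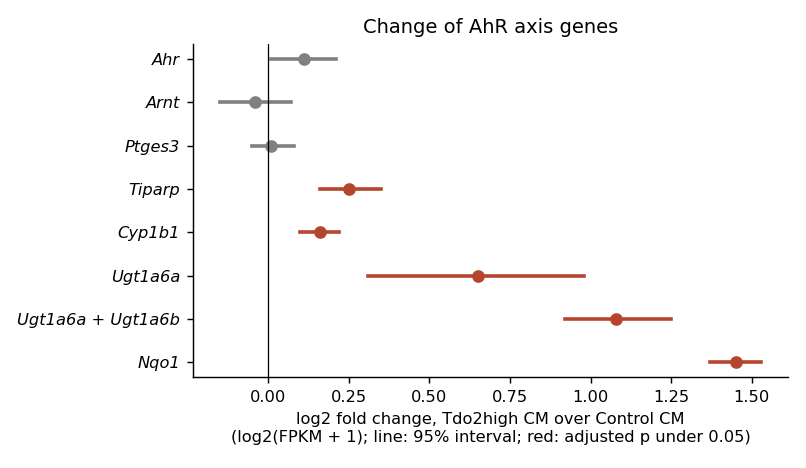
Log2 fold change (dot) and 95% interval (line) by limma, Tdo2high CM over Control CM, for the 6 tested members, the summed Ugt1a6 row and Nqo1. Intervals of Tiparp (0.16 to 0.35) and Cyp1b1 (0.10 to 0.22) lie above 0 but far below those of the Ugt1a6 sum and Nqo1.

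Nqo1, a quinone reductase driven by both AhR and NRF2, gives a point of comparison for the size of these changes. It is not a member and was picked with earlier results of these data known. No tested gene had a lower p by limma, so the contrast with Cyp1b1 describes these genes and is no independent support. Nqo1 had 37.82, 36.83 and 37.19 FPKM after Tdo2high CM and 12.58, 13.56 and 12.86 FPKM after Control CM. Within each library, the log2(FPKM + 1) of Nqo1 minus that of Cyp1b1 averaged -1.27 ± 0.01 after Tdo2high CM and -2.56 ± 0.06 after Control CM (SD, n = 3 each). The difference moved by 1.29 between the media, with every Tdo2high CM library above every Control CM library. An exact two-sided permutation test gave p = 0.1, the smallest that 3 samples against 3 allow. The shift is many times the SD within either group, but this permutation test cannot reach a threshold of 0.05 with 3 samples against 3. By limma, Nqo1 alone had a log2 fold change of 1.45 ± 0.037 (SE; adjusted p = 2.84e-08).

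**Figure D4:**
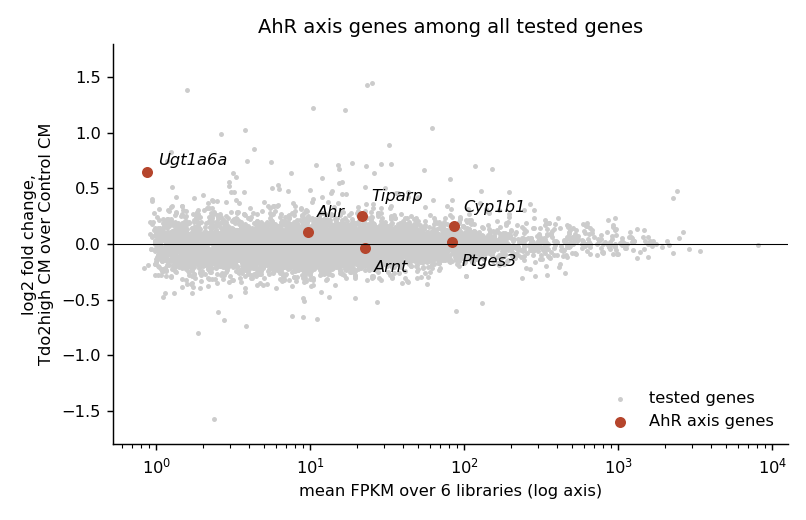
Mean FPKM (log axis) against log2 fold change, Tdo2high CM over Control CM, for 10804 tested genes (grey) and the 6 tested members (red). Cyp1b1 and Ptges3 are the most abundant of the 6, and Ugt1a6a sits at the low end with a log2 fold change of 0.65.

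Further reported targets of the receptor, 18 of 21 listed genes being in the table, were mixed. Of 11 tested, 4 rose and 1 fell, where 3.35% of all tested genes were called higher and 4.06% lower. The median log2 fold change was 0.082, against -0.0136 over all tested genes. The list was chosen with earlier results of these data known, so these contrasts describe it and are no test. Besides Nqo1, Aldh3a1, an aldehyde dehydrogenase, rose by 1.43 ± 0.044 on the log2 scale (SE; adjusted p = 9.02e-08 by limma). Selenbp1, a selenium-binding protein gene, stood at 18.8 ± 0.617 FPKM after Tdo2high CM and 13.5 ± 0.666 FPKM after Control CM (SD, n = 3 each), a log2 rise of 0.45 (adjusted p = 0.000383 by limma). Xdh, xanthine dehydrogenase, named after its values were seen as the fourth of these, rose by 0.16 (adjusted p = 0.00701 by limma). The gene that fell was Hes1, a Notch-responsive repressor, with 8.82 ± 0.630 FPKM after Tdo2high CM and 10.5 ± 0.240 FPKM after Control CM (log2 fold change -0.23, adjusted p = 0.0281 by limma). Its call ended with no filter on low values (0.0867) and without Tdo2high CM replicate 1 (0.0745) or 2 (0.0703) or Control CM replicate 1 (0.0817), 2 (0.0520) or 3 (0.0849). The other 6 tested targets were not called and went both ways. Nfe2l2, which encodes NRF2, had a log2 fold change of 0.08 and Ptgs2, cyclooxygenase 2, of 0.09 (adjusted p = 0.160 and 0.227 by limma). Vav3 was at 0.01, Cdkn1b at -0.06, Slc7a5 at -0.08 and Abcg2 at -0.18 (adjusted p = 0.243 by limma for Abcg2). Cyp1a1 and Cyp1a2, the best known AhR targets, were not analysed here.

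Among the genes listed for the receptor's complex and coactivators, 1 of 14 tested fell and 0 rose by limma. That is near the 7.41% of all tested genes called in either direction. At an unadjusted p under 0.05, 2 were lower and 0 higher, namely Hsp90aa1 and Src (-0.09 for Src, adjusted p = 0.131 by limma). The called gene was Hsp90aa1, the inducible HSP90 chain, at 296.27, 296.08 and 297.84 FPKM after Tdo2high CM and 330.49, 329.52 and 320.23 FPKM after Control CM. Its log2 fold change was -0.14 ± 0.027 (SE; adjusted p = 0.0136 by limma). The call ended without a variance trend (0.0554) and without Tdo2high CM replicate 2 (0.0527) or 3 (0.0521) or Control CM replicate 1 (0.0502). Hsp90ab1, the constitutive chain, gave a log2 fold change of 0.05, with a 95% interval of -0.02 to 0.12.

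Of the other bHLH-PAS genes, which include the hypoxia and clock factors, 7 of 15 in the table passed the filter. None was called by limma, where 7.41% of all tested genes were, nor did any reach an unadjusted p under 0.05. Hif1a, whose product also pairs with ARNT, gave a log2 fold change of -0.01, with a 95% interval of -0.08 to 0.06, and Arnt2, the close relative of Arnt, averaged 0.0233 FPKM after Tdo2high CM and 0.0200 FPKM after Control CM. Genes that make, break down or carry tryptophan and kynurenine gave 0 calls among 6 tested by limma, beside the same share over all genes. At an unadjusted p under 0.05, 1 was lower. That was Slc7a5, the light chain of an amino acid carrier that takes up kynurenine, at 92.6 ± 3.74 FPKM after Tdo2high CM and 98.1 ± 1.38 FPKM after Control CM (SD, n = 3 each; log2 fold change -0.08, adjusted p = 0.163 by limma). In the carcinoma cells Tdo2 itself did not exceed 0.20 FPKM with either medium.

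**Figure D5:**
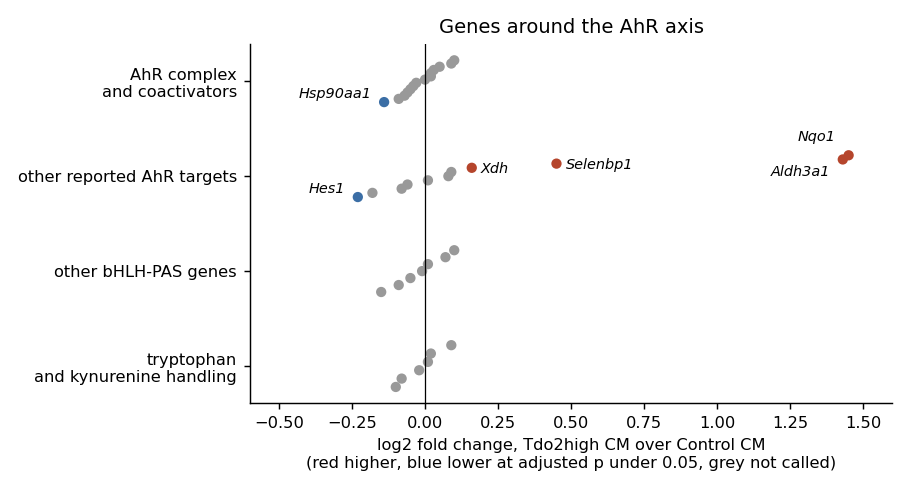
Log2 fold change, Tdo2high CM over Control CM, of each tested gene in 4 lists around the receptor (dots; red higher, blue lower and grey not called at an adjusted p under 0.05). The reported targets hold 4 higher and 1 lower gene, with Nqo1 and Aldh3a1 farthest to the right.

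Over the 6 samples, the genes most like Cyp1b1 in log2(FPKM + 1) were Tgfbr1 (Pearson's r = 0.9983), Pnp (0.9965) and Col12a1 (0.9962). Tgfbr1, a TGF-beta receptor, stood at 27.4 ± 0.342 FPKM after Tdo2high CM and 22.3 ± 0.341 FPKM after Control CM (SD, n = 3 each). Most like Tiparp were Frk (0.9961), Sugt1 (0.9914) and Tmod3 (0.9888), none of them called (adjusted p = 0.118, 0.115 and 0.129 by limma). With 2 groups that differ, many genes that differ the same way score high: 172 genes reached 0.95 with Cyp1b1 and 74 with Tiparp.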

How the data were processed

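Groups (3 libraries per medium) follow the sample titles, which the column names match. The authors deposited 1 table of FPKM rounded to 2 decimals, per the file headers; the build was GRCm38, per the submitters' processing notes. The sources used here do not give the aligner, quantifier or annotation. Low values (7441 of up to 0.6 FPKM), each divided by the smallest in its gene, lay on average 0.2503 from a whole number, as unrelated numbers would, so depth is unknown and no count model was used.

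Genes with at least 1 FPKM in at least 3 libraries (10804) were tested as log2(FPKM + 1) with limma 3.58.1 in R 4.3.3 (eBayes with trend, two-sided) and Benjamini-Hochberg adjustment over all of them. Per-library differences used an exact permutation test in scipy 1.17.1. The test was tried on simulated data with known changes, of which it recovered 59% at 1.2-fold and 96.8% at 1.5-fold. A small change can therefore miss the call. Alternatives were pseudocounts, filters, scalings, variance models, a replicate block, leaving out each library and summed rows for Ugt1a6. Members and lists were chosen with earlier results of these data known. Named genes were the members, up to 4 called genes in each list (those of largest change), and the 3 genes most correlated with Tiparp and with Cyp1b1; others were named after their values were seen. Positions and promoters come from RefSeq, transcripts from GENCODE M21, both on GRCm38. Figures were drawn with matplotlib 3.10.9.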

Additional observations from a re-analysis of the deposited data

How the results depend on the processing

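The calls of Tiparp and Cyp1b1 held in all 16 alternatives each, and Ahr, Arnt and Ptges3 gained no call in any. The Ugt1a6a and Ugt1a6b sum kept its call in the 15 of these that could test it. A filter of at least 1 FPKM in all 6 libraries left the sum out. Members called numbered 3 in 8 of 16 alternatives and 2 in the other 8, where Ugt1a6a lost its call or was not tested; without 1 library they were 2 or 3. Over all genes the count of 801 became 394 with no filter on low values and 525 without a variance trend; leaving out 1 library gave 395 to 559 (486, 395 and 440 without Tdo2high CM replicate 1, 2 or 3; 440, 559 and 501 without Control CM replicate 1, 2 or 3). The cause was not tested. Ptges3 turned sign under quantile normalization (-0.01) and ran from -0.01 to 0.03 without 1 library. Same-numbered libraries of the media did not deviate together (correlations of -0.0305 to 0.018). This gives no sign of pairing but cannot exclude it, and the labels do not state it. With a replicate block 622 genes and 2 members were called, and Ugt1a6a had adjusted p = 0.0692 by limma. The Nqo1 and Cyp1b1 difference was 1.26 to 1.32 without 1 library. The sum over all 3 Ugt1a rows was added after seeing the data. Unknown depth and rounding limit rows below about 1 FPKM.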

Other observations

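Of the listed AhR targets below the expression filter, Stc2, which encodes the secreted glycoprotein stanniocalcin 2, was named after its values were seen. It had 0.52, 0.43 and 0.52 FPKM after Tdo2high CM and 0.76, 0.85 and 0.85 FPKM after Control CM, with no overlap. It was below the filter of the test. With no filter its log2 fold change was -0.29 ± 0.042 (SE; adjusted p = 0.0250 by limma), where 195 of 16397 genes were called lower. Cyp2s1, a cytochrome P450, averaged 0.267 ± 0.134 FPKM after Tdo2high CM and 0.453 ± 0.0850 FPKM after Control CM (SD, n = 3 each), with overlap. Scin, an actin-severing protein gene, averaged 0.0633 FPKM after Tdo2high CM and 0.0333 FPKM after Control CM.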
